A study of Mus musculus with 7 samples.

Results

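DNase-Seq peaks on mouse chromosomes 6, 8, 15 and 19 were described in bins of 5 Mb along each chromosome. These 4 chromosomes held 517441 of the 2782440 peaks of 3 lists, which were 218288 of 1036304 for NG, 144094 of 846027 for HG+NT and 155059 of 900109 for HG+miR-93. They were chosen by their mean pileup in HG+NT relative to NG in an earlier look at the same lists, so every difference between HG and NG given here is a description of that choice and was not tested. The cells were differentiated, conditionally immortalised mouse podocytes, which grow with a thermosensitive T antigen and stop dividing when moved to a warmer incubator without interferon-γ. They were deprived of serum and cultured for 36 h. NG cells had 5 mM glucose, with no mimic named in their labels, and the HG cells had 25 mM glucose plus a mimic at 50 nM, either non-targeting (HG+NT) or of miR-93 (HG+miR-93). There were 2 samples per condition and 1 input of genomic DNA from the same line, digested with less DNaseI. The authors deposited 1 peak list per condition for the joined samples, so a difference between conditions has no replicate error beside it, and glucose, mimic, culture, library and any difference in chromosome copies between the cultures cannot be told apart.

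DNaseI releases more fragments from DNA that is free of nucleosomes, so the height of a peak rises with the openness of the site. It also rises with the number of copies of the chromosome in the cells, because every copy adds fragments. A gain of openness at regulatory sites raises single peaks, whereas a gain or loss of a whole chromosome, of an arm or of a segment shifts all peaks of that stretch, between regulatory sites as well. Mouse autosomes have the centromere at one end, so a chromosome has a proximal and a distal end and in effect a single arm. Cell lines kept in culture are known to change their chromosome number.

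In these lists the peaks were far from rare open sites. They covered 92.4% to 95.9% of the known bases of the 4 chromosomes in NG and at least 97.2% in HG+NT and HG+miR-93, and a position outside any peak was the exception. A level is therefore a property of nearly all DNA of a bin, not of its hypersensitive sites alone. On each chromosome the peak with the highest least −log10 p over the 3 lists is shown here to give the kind of sequence that carried the strongest signal, as 121 bases centred on the NG summit, plus strand of GRCm38.p6, with CG dinucleotides in capitals.
chromosome 6, Cct7 and Pradc1, chr6:85451542-85451662: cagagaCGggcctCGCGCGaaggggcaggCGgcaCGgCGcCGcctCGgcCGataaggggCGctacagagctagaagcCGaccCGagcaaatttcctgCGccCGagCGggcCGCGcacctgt
chromosome 8, Mbtps1, chr8:119558710-119558830: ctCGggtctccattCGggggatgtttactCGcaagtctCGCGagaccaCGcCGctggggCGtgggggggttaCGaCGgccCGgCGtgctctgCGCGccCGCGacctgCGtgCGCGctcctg
chromosome 15, Mrtfa, chr15:81190692-81190812: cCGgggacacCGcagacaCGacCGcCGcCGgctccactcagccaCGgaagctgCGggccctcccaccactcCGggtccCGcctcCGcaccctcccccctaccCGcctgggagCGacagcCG
chromosome 19, Mms19, chr19:41981222-41981342: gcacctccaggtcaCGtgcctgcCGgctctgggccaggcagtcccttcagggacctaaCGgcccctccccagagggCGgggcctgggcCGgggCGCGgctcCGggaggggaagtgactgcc

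All of these lay within 125 nt of a TSS and were rich in CG, with 18, 19, 14 and 8 CG dinucleotides and a GC content of 71.9% to 76.9%. Of 218287 windows of the same length at the NG summits of the 4 chromosomes, 0.657% held at least 10 CG and the median GC content was 45.5%. The AP-1 motif TGANTCA, which reads the same on both strands, had no match in the 4 windows and was in 3.94% of all windows. The window on chromosome 6 lies inside both Cct7, a subunit of the cytosolic chaperonin, and the overlapping gene Pradc1 on the other strand, and its NG fold was 3.24, against 4.80 under HG+NT and 3.60 under HG+miR-93. The site before Mbtps1, the protease that activates SREBP transcription factors, had folds of 4.76, 4.82 and 4.14, and that of Mrtfa, an actin-regulated cofactor of serum response factor, had 5.37, 5.01 and 4.41. The site 125 nt from the TSS of Mms19, a factor of iron-sulfur protein assembly, had 3.91, 6.33 and 5.06, from 45, 118 and 125 fragments. The sites of chromosomes 8 and 15 did not have a higher fold in both HG lists than in NG, while the mean fold over all peaks was 1.27, 1.37 and 1.31 on chromosome 8 and 1.26, 1.34 and 1.28 on chromosome 15. Here and where 3 values stand side by side without a name, they are given as NG, HG+NT and then HG+miR-93, and a fold is as deposited.

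The fold (column 7) is the fragment pileup at a summit plus 1, over the local mean of the input plus 1. The level of a bin is its mean fold divided by the median bin of the 15 other autosomes in the same list, so a level of 1 is that of this median bin. All 90 bins of the 4 chromosomes (30, 26, 21 and 13) and 400 bins of the other autosomes held at least 500 peaks in each list. The fragments in a bin limited its precision to a counting error of 0.774%, 0.691% and 0.6003%, as medians over the 90 bins that cover counting error only.

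In NG, chromosome 6 stood at the level of the other autosomes and the other 3 stood below it. The median bin had a level of 1.00 on chromosome 6, 0.959 on chromosome 8, 0.948 on chromosome 15 and 0.946 on chromosome 19. In HG+NT the same chromosomes stood at 1.09, 1.15, 1.11 and 1.14, and in HG+miR-93 at 1.07, 1.14, 1.104 and 1.13. Both HG lists were thus above NG on each of the 4. The ratio HG+NT over NG was 1.09 on chromosome 6, with bins from 0.939 to 1.23, 1.21 on chromosome 8 with bins from 1.00 to 1.53, 1.17 on chromosome 15 with bins from 0.994 to 1.417, and 1.22 on chromosome 19 with bins from 1.13 to 1.32. HG+miR-93 over NG gave 1.07, 1.204, 1.15 and 1.19.

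As deposited, these ratios varied along each chromosome. A ratio at least 5% above 1 (a raised bin) was reached by 19 of 30 bins on chromosome 6, 24 of 26 on chromosome 8, 18 of 21 on chromosome 15 and 13 of 13 on chromosome 19 in HG+NT over NG, against 39.2% of all 490 autosomal bins. In HG+miR-93 over NG the counts were 16, 23, 17 and 13, against 42% of all bins. The choice of chromosomes used this contrast, so nothing is read from these shares. Chromosome 6 was not separate from the rest, since chromosome 11, which is not among the 4, had a median ratio of 1.09 as well. Chromosome 15 had a block of high bins from 75 Mb to its end, with a mean log2 ratio of 0.42 against 0.17 before it, and bins at the level of the other autosomes at 15 to 25 Mb and 45 to 50 Mb.

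The bins near or below a ratio of 1 were poor in GC. Over the 400 bins of the other autosomes, the level and the GC content of a bin had a Pearson r of 0.21 in NG but 0.970 under HG+NT and 0.975 under HG+miR-93, a description over bins that come from 1 list each time and share 1 input. From a GC content of 38% to 46% the trend rose from 0.901 to 1.11 in HG+NT and from 0.875 to 1.13 in HG+miR-93, and stayed between 0.995 and 1.01 in NG. What made the HG lists follow GC was not tested. The bins with the lowest ratio on chromosomes 6, 8 and 15 had 37.6%, 36.8% and 36.4% GC and held 5, 8 and 2 coding genes, whereas the highest bins, at 85 to 90 Mb, 120 to 125 Mb and 75 to 80 Mb, had 45.998%, 50.8% and 49.1% GC and held 80, 85 and 160 coding genes. On chromosome 19 the first 5 Mb were the highest and 30 to 35 Mb the lowest, with 46.9% and 40.6% GC.

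**Figure D1:**
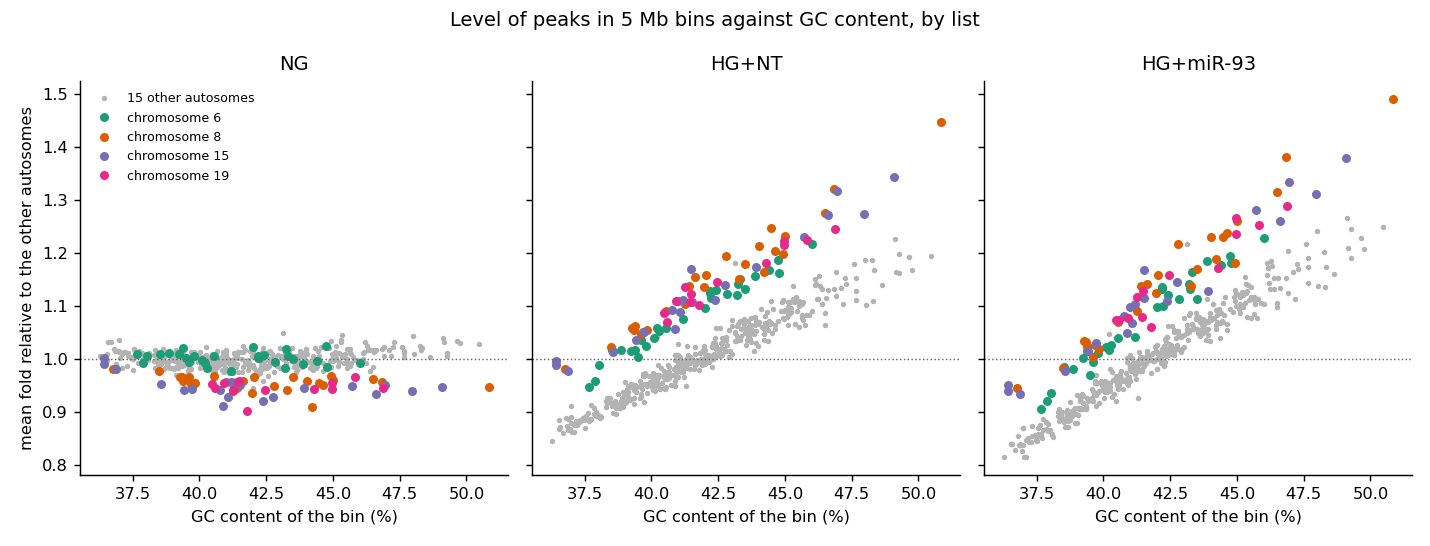
Mean fold of each 5 Mb bin relative to the other autosomes (y axis) against the GC content of the bin in % (x axis), in the 3 lists; grey points are the 400 bins of the 15 other autosomes and coloured points the 90 bins of the 4 chromosomes. In NG chromosomes 8, 15 and 19 lie below most grey points and chromosome 6 among them, and in both HG lists the coloured points rise with GC above the grey ones.

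With the trend on GC removed, by a quadratic fit to the other autosomes within each list, every bin of the 4 chromosomes was raised in HG+NT over NG. That was 30, 26, 21 and 13 bins, against 19% of all 490 bins and 3 of the 400 bins of the other autosomes. The ratio became 1.09 on chromosome 6 with bins from 1.06 to 1.12, 1.18 on chromosome 8 with bins from 1.14 to 1.32 (the GC-rich bin at 120 to 125 Mb), 1.18 on chromosome 15 with bins from 1.16 to 1.24, and 1.18 on chromosome 19 with bins from 1.16 to 1.21. The other autosomes had medians from 0.990 (chromosome 14) to 1.02 (chromosome 5), chromosome 11 no longer stood out, and their bins ran from 0.945 to 1.08. The lowest bin of chromosomes 8, 15 and 19 thus lay above the highest bin of all other autosomes, and chromosome 6 overlapped it. In HG+miR-93 over NG, 27 of 30 bins of chromosome 6 and all bins of the other 3 were raised, against 18.4% of all bins, with medians of 1.08, 1.18, 1.17 and 1.17.

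**Figure D2:**
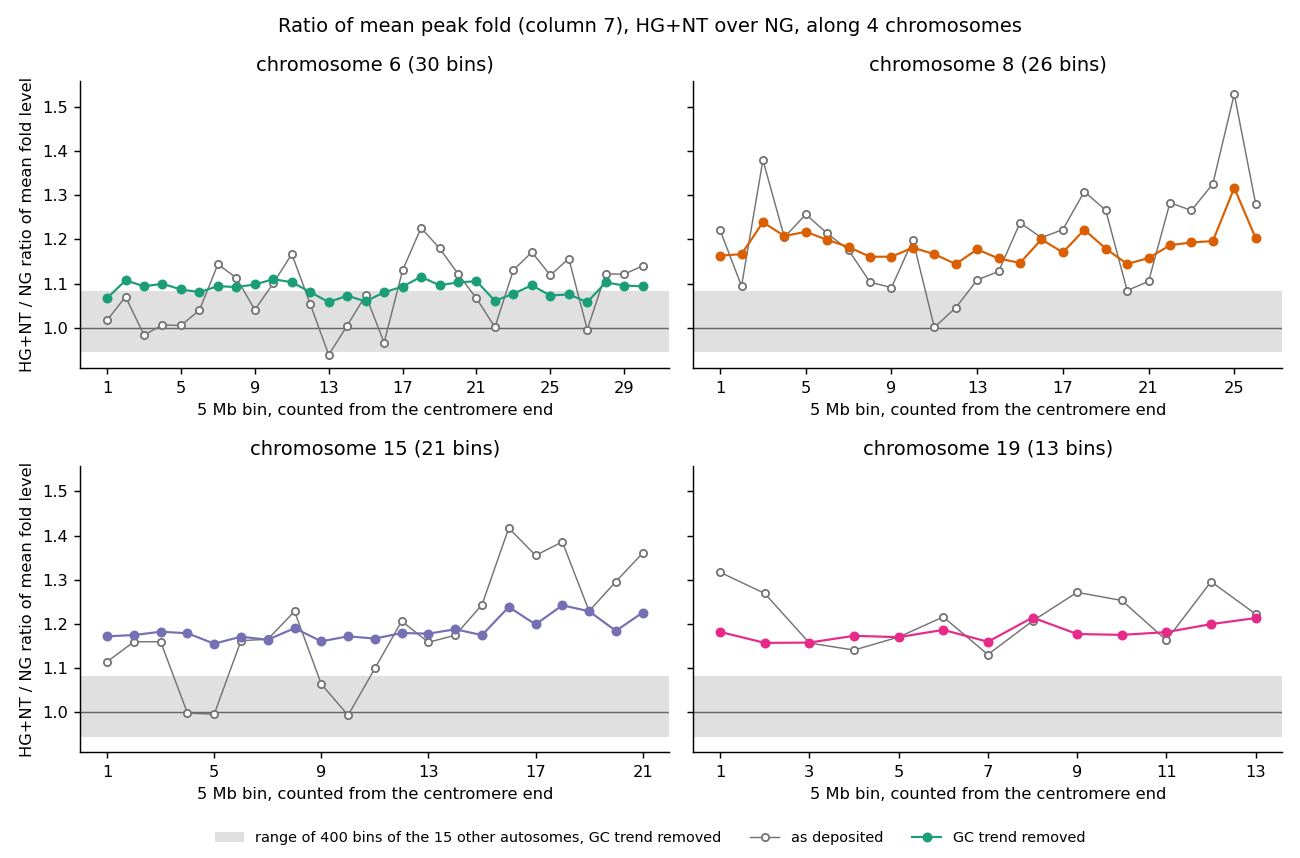
Ratio of the mean fold level, HG+NT over NG (y axis), in each 5 Mb bin counted from the centromere end (x axis) of the 4 chromosomes; open points are as deposited, filled points have the GC trend removed, and the grey band spans the 400 bins of the other autosomes with the trend removed. The open points rise and fall along each chromosome and reach 1.53 on chromosome 8, while the filled points stay at 1.06 or more from end to end.

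With the GC trend removed, no bin of the 4 chromosomes came back to a ratio of 1 in HG+NT over NG. As deposited, 4 bins of chromosome 6 and 3 of chromosome 15 were below 1. As a measure of a segmental change, each chromosome was split at every point that leaves at least 4 bins on either side, and the largest difference in the mean log2 ratio of the sides, distal minus proximal, was taken as its step. With the GC trend removed, the step in HG+NT over NG was -0.013 on chromosome 6, 0.057 on chromosome 8 at 110 Mb, 0.055 on chromosome 15 at 75 Mb and 0.029 on chromosome 19 at 35 Mb. The 15 other autosomes had steps of 0.0085 to 0.0489 in size. As deposited, the steps were 0.10, 0.20, 0.25 and 0.048, against 0.030 to 0.20 on the other autosomes.

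The steps of chromosomes 8 and 15 were thus a little past those of the other autosomes, but both sides of each were raised. The mean log2 ratio was 0.24 before and 0.29 after 110 Mb on chromosome 8, and 0.23 before and 0.29 after 75 Mb on chromosome 15. On chromosome 6 it was 0.13 before and 0.12 after 55 Mb, and on chromosome 19 it was 0.23 before and 0.26 after 35 Mb. The distal bins of chromosomes 8 and 15 were also the richest in GC, and only 38 of the 400 other bins had more than 46% GC to draw the trend from. Within bins of 38% to 46% GC the steps were -0.015, -0.020, 0.024 and 0.032, against 0.0078 to 0.0436 in size on the other autosomes. In those bins chromosome 8 ran from 1.14 to 1.22, chromosome 15 from 1.16 to 1.23 and chromosome 19 from 1.16 to 1.21. At a resolution of 5 Mb and with the GC trend removed, the difference between the lists was thus present along the whole length of each of the 4 chromosomes. It was smaller on chromosome 6 than on the others.

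**Figure D3:**
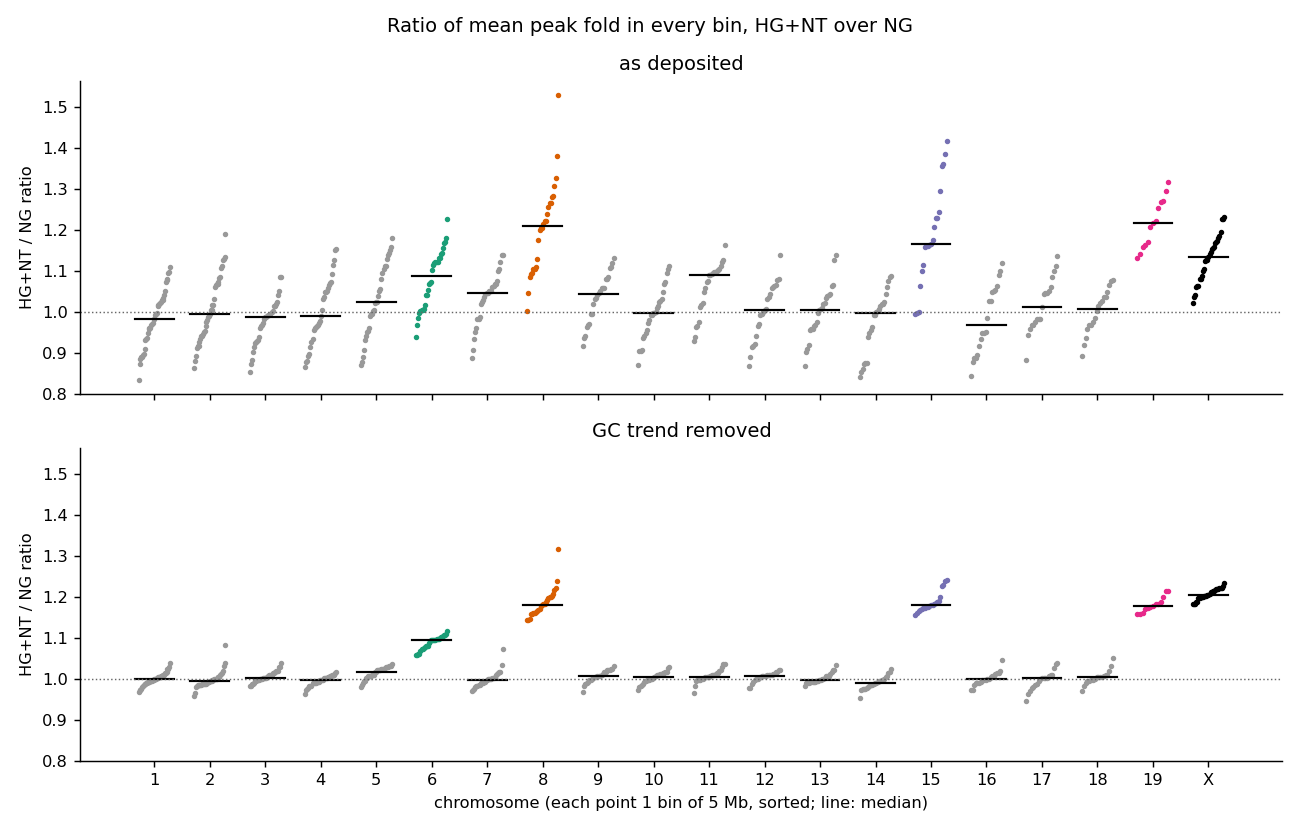
Ratio of the mean fold level, HG+NT over NG (y axis), in each 5 Mb bin of every chromosome (x axis), as deposited above and with the GC trend removed below; each point is 1 bin, sorted by value within its chromosome, and the line is the median. With the trend removed chromosomes 8, 15 and 19 lie near 1.18 and chromosome 6 at 1.09, the 15 other autosomes between 0.990 and 1.02, and the X chromosome, which is not among the 4, at 1.205.

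The fold also depends on the input. The input is shared by the 3 lists, and its local mean at summits of chromosomes 8, 15 and 19 was 1.13, 1.102 and 1.13 times that of the other autosomes in NG, whereas chromosome 6 was at 0.994. An input above the background mean was used at 83.9%, 82.3% and 85.7% of the NG summits of chromosomes 8, 15 and 19, against 64.1% on chromosome 6 and 63.9% on the other autosomes. The pileup, the number of fragments at the summit on the scale of the input, does not contain that division. With the GC trend removed, its level in NG was 1.007 on chromosome 6, 1.047 on chromosome 8, 1.028 on chromosome 15 and 1.048 on chromosome 19, and for HG+NT it was 1.15, 1.33, 1.33 and 1.33. Chromosomes 8, 15 and 19 were thus below the other autosomes in NG by fold and slightly above them by pileup. The pileup ratio HG+NT over NG was 1.13, 1.27, 1.28 and 1.27 on the 4 chromosomes, and HG+miR-93 over NG gave 1.12, 1.26, 1.27 and 1.26. The chromosomes had been chosen by values of this kind. Chromosome 6 was the lowest of the chosen ones and chromosome 5, at 1.02, the highest of the other autosomes.

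The whole range of peak heights was shifted. In bins of 40% to 44% GC, the fragments at a summit in NG had a median of 6 on the other autosomes and on each of the 4 chromosomes. In HG+NT the 10th, 50th and 90th percentiles were 5, 9 and 14 fragments on the other autosomes, 6, 11 and 17 on chromosome 6, 7, 12 and 19 on chromosomes 8 and 15, and 7, 12 and 18 on chromosome 19. In HG+miR-93 the median was 12 on the other autosomes and 14, 16, 15 and 15 on the 4 chromosomes. Low and high percentiles were both above those of the other autosomes in HG+NT.

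**Figure D4:**
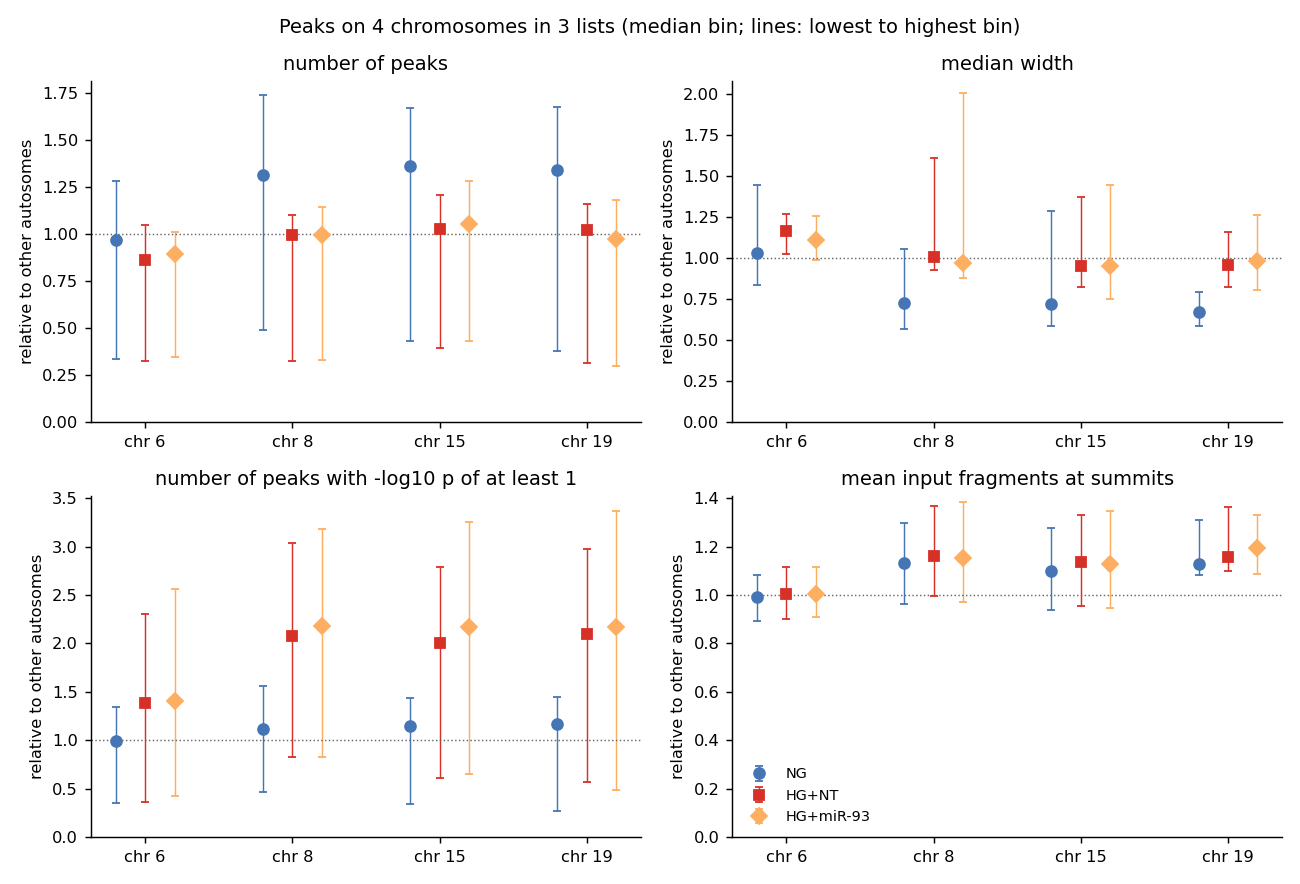
Number of peaks, median width, number of peaks with a −log10 p of at least 1 and mean input at the summits on the 4 chromosomes (x axis) in the 3 lists, each relative to the median bin of the other autosomes (y axes); points are the median bin and lines run from the lowest to the highest bin. In NG chromosomes 8, 15 and 19 have more and narrower peaks than the other autosomes, and in the HG lists their number and width come near 1 while their strong peaks lie well above 1.

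The number and the width of peaks also differed between the lists, as 2 sides of one division of nearly the whole chromosome. Chromosomes 8, 15 and 19 had 556, 553 and 581 peaks per Mb in NG, against 401 on the other autosomes, and 342, 351 and 363 in HG+NT, against 345. Their median widths were 1030, 1040 and 1005 bp in NG, where the other autosomes had 1460 bp, and 1772, 1716 and 1677 bp in HG+NT, where the others had 1749 bp. Chromosome 6 differed from these 3 in NG, with 403 peaks per Mb and a median width of 1462 bp, as on the other autosomes. In HG+NT it had fewer and wider peaks than the other autosomes, at 305 per Mb and 2003 bp. The ratio HG+NT over NG of the peak number, with the GC trend removed, was 0.875, 0.741, 0.758 and 0.761 on chromosomes 6, 8, 15 and 19, and that of the other autosomes 0.977 to 1.03. That of the width was 1.17, 1.43, 1.35 and 1.36, against 0.974 to 1.02.

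Strong peaks, those with a −log10 p of at least 1, had the opposite order to all peaks once set against the other autosomes. On chromosomes 8, 15 and 19 they were 126, 119 and 129 per Mb in NG and 98.2, 92.3 and 105 in HG+NT, while the other autosomes went from 106 to 50.4 per Mb. Chromosome 6 went from 106 to 65.5. Relative to the other autosomes and within bins of 40% to 44% GC, their number in HG+NT over NG was 1.46 on chromosome 6 (16 bins, 1.12 to 1.68), 1.80 on chromosome 8 (9 bins, 1.61 to 1.95), 1.79 on chromosome 15 (10 bins, 1.64 to 1.99) and 1.78 on chromosome 19 (8 bins, 1.57 to 2.12). The medians of the other autosomes ran from 0.907 to 1.196. In HG+miR-93 over NG the 4 chromosomes gave 1.51, 1.94, 1.95 and 1.79, against 0.912 to 1.22. A fixed p counts more peaks where all peaks are higher, so these counts are no measure apart from the level.

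The shift was also present far from genes. Among bins of 40% to 44% GC, and relative to peaks of the same class on the other autosomes, peaks over 100000 nt from any TSS of a coding gene had a fold ratio HG+NT over NG of 1.08, 1.18, 1.17 and 1.16 on chromosomes 6, 8, 15 and 19. Peaks within 500 nt of a TSS had 1.13, 1.31, 1.28 and 1.201, and those at 500 to 2500 nt had 1.11, 1.24, 1.19 and 1.17. By fold the ratio was higher at promoters than in remote DNA on all 4 chromosomes, and above 1 in both. By pileup the gap was small on chromosomes 6 (1.146 against 1.125) and 19 (1.283 against 1.258) and larger on 8 and 15. Peaks at 500 to 2500 nt were below remote ones by pileup on chromosomes 15 (1.250 against 1.267) and 19 (1.223 against 1.258). They were above them on 6 and 8. The promoter class held 245 to 651 peaks per chromosome in NG and HG+NT, and no error was computed for these ratios. By fold, the remote peaks had 1.07, 1.17, 1.16 and 1.15 in HG+miR-93 over NG.

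HG+miR-93 and HG+NT, which share the high glucose and the input, differed little along the 4 chromosomes. With the GC trend removed, HG+miR-93 over HG+NT was 0.990 on chromosome 6, 0.993 on chromosome 8, 0.996 on chromosome 15 and 1.00 on chromosome 19. No bin was raised, and 0% of all 490 bins were. The lowest bin was 70 to 75 Mb of chromosome 15, at 0.951, the 1 bin of the 90 that was lowered by as much as a raised bin is raised. In that bin HG+NT was at 1.17 and HG+miR-93 at 1.12 times NG. It holds Ptk2, the focal adhesion kinase, whose peak over the annotated 5′ end had a fold of 3.24 in NG against 2.42 (HG+NT) and 2.42 (HG+miR-93).

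Promoters of coding genes followed their chromosome on average. The fold ratio HG+NT over NG of the strongest peak within 500 nt of a TSS, relative to the median coding gene of the other autosomes, had a median of 1.08 on chromosome 6, 1.22 on chromosome 8, 1.24 on chromosome 15 and 1.17 on chromosome 19. It lay above the median of the other autosomes for 635 of 1105, 733 of 1037, 585 of 781 and 485 of 715 coding genes. The quartiles on chromosome 8 were 0.957 and 1.504, a wider range than that between the 4 chromosomes. HG+miR-93 over NG gave medians of 1.06, 1.19, 1.24 and 1.17. A gene with several TSS can have its strongest peak at different ones in different lists, so the ratios were also taken at 1 TSS per gene, the annotated 5′ end, where HG+NT over NG had medians of 1.08, 1.23, 1.23 and 1.19.

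All 36 named genes on the 4 chromosomes, 9, 11, 8 and 8 in order, had a promoter peak in the 3 lists. In HG+NT over NG, 13 of the 36 were above the median promoter of the other autosomes and 8 were above that of their own chromosome. By definition as many coding genes of a chromosome lie above its median promoter as below it. That is also the reference for the counts by group given below, which are by fold and hold few genes each. For HG+miR-93 over NG these counts were 21 and 14. By fold the genes were thus mostly below their chromosome, with a median of 0.760 times its median promoter in HG+NT over NG and 0.948 in HG+miR-93 over NG. By pileup, 19 of the 36 rather than 13 were above the other autosomes in HG+NT over NG, and 8 genes (Junb, Col4a2, Myc, Ccnd2, Gadd45a, Itga5, Krt8 and Gapdh) lay on the other side of that median than by fold. The fold of each list was divided by the local input at its own summit, and the pileup was not.

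The promoter peaks of NG and HG+NT overlapped for all 36 genes, and those of the 3 lists for 31. For Col4a1, Myh9, Met, E2f4 and Ptk2 the strongest HG+miR-93 peak was at another site, so values of these 5 are given at the 5′ end, though they are in the counts with their strongest peak. At the 5′ end the peaks of the 3 lists overlapped for 35 genes, all but E2f4. There the 95% exact Poisson intervals of the NG pileup, which cover counting error only, overlapped those of either HG list for every gene but Myh9, and the intervals of the HG lists overlapped each other for all 36. The share over all coding genes was not counted, so nothing is read from these counts.

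**Figure D5:**
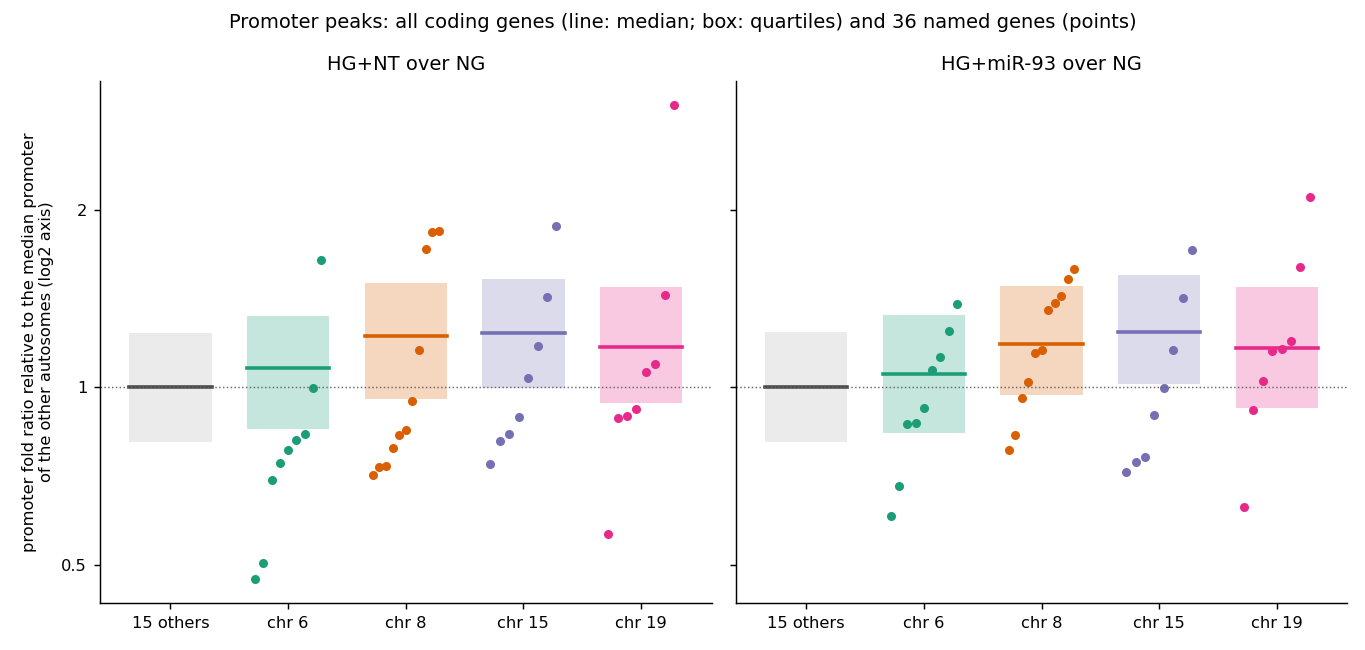
Promoter fold ratio to NG, relative to the median promoter of the other autosomes (y axis, log2 scale), for HG+NT and HG+miR-93; lines are medians and boxes quartiles over all coding genes of the 15 other autosomes or of each of the 4 chromosomes (x axis), and points are the 36 named genes in order of value. The medians of the 4 chromosomes lie above 1, and the named genes spread beyond the boxes on both sides, from 0.473 (Podxl) to 3.02 (Nfkb2) in HG+NT.

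Of 7 genes of the study and of the podocyte, 6 were below their chromosome's median promoter in HG+NT over NG and 6 in HG+miR-93 over NG. Rps6ka4 on chromosome 19 (chr19:6829085-6840636, minus strand), which encodes the kinase MSK2 that phosphorylates histone H3, had an NG fold of 2.79, one of 2.30 under HG+NT and one of 2.19 under HG+miR-93, from 19, 28 and 40 fragments. By fold its ratio to NG was 0.785 and 0.787 times that of the median promoter of chromosome 19. Its pileups were 8.49, 7.27 and 7.77. Relative to the other autosomes its ratios to NG were 0.920 and 0.917 by fold and 0.982 and 1.12 by pileup. Junb, an AP-1 subunit on chromosome 8, had folds of 2.81, 2.14 and 2.77 but pileups of 12.5, 16.1 and 12.8, so HG+NT was the lowest list by fold and the highest by pileup. Col4a1 and Col4a2, collagen chains of the basement membrane on the same chromosome, had the same values at their 5′ ends, with folds of 1.43, 1.07 and 1.71 and pileups of 7.59, 7.53 and 7.19. Podxl on chromosome 6, the main sialoprotein of the podocyte surface, had the lowest fold ratio to its chromosome of the 36 in HG+NT over NG, at 0.439, with folds of 2.80, 1.19 and 2.08 from 13, 19 and 27 fragments. Its pileups were 5.81, 4.93 and 5.25, and relative to the other autosomes its ratio HG+NT over NG was 0.473 by fold and 0.974 by pileup. The local input that divides the fold of Podxl was lower at the NG summit than at the HG summits.

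Myh9 on chromosome 15 (chr15:77760587-77842175, minus strand), the heavy chain of nonmuscle myosin IIA, was the only one of the 36 whose pileup intervals at the 5′ end of the gene in both HG lists did not overlap that in NG. The NG pileup was 7.15 (4.08 to 11.6), that of HG+NT 27.3 (22.3 to 33.0) and that of HG+miR-93 19.4 (15.8 to 23.6), from 16, 105 and 100 fragments. By fold it had 2.40, 4.04 and 1.703, so HG+miR-93 was above NG by pileup and below it by fold. The share of all coding genes with such intervals was not counted. With 36 genes and 1 list per condition, 1 gene outside its interval is given as a value and not as a change.

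Of 8 signalling genes, 3 were above their chromosome in HG+NT over NG and 4 in HG+miR-93 over NG. Nfkb2, a subunit of NF-κB on chromosome 19, had the highest fold ratio to its chromosome, at 2.58 in HG+NT over NG and 1.81 in HG+miR-93 over NG, with folds of 1.501, 4.06 and 2.71. Its pileups were 12.5, 17.7 and 11.5, and relative to the other autosomes its ratio HG+NT over NG was 3.02 by fold and 1.62 by pileup. The local input that divides the fold of Nfkb2 was higher at the NG summit than at the HG summits. Rela, another NF-κB subunit on the same chromosome, had folds of 4.204, 2.12 and 2.26 and pileups of 11.6, 9.61 and 10.3. The AP-1 subunit Fosl1 had folds of 2.27, 2.91 and 3.12. The immediate early gene Ier2 had folds of 2.43, 3.74 and 2.98 but pileups of 11.2, 12.5 and 9.72. For Ier2, HG+miR-93 was thus above NG by fold and below it by pileup. Of 6 stress genes, 2 were above their chromosome in HG+NT over NG and 3 in HG+miR-93 over NG. The metallothioneins Mt1 and Mt2, which bind metals, had 1.81, 2.98 and 2.37, and 1.81, 2.98 and 2.47, and share a peak in HG+NT. Nqo1, a quinone reductase, had 2.82, 1.86 and 2.01. Hmox1, which degrades heme, had folds of 1.58, 1.64 and 1.83 and pileups of 8.49, 8.83 and 8.16.

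Of 11 genes of growth and the cell cycle, 10 were below their chromosome in HG+NT over NG and 6 in HG+miR-93 over NG. The exception in HG+NT was Met, the receptor of hepatocyte growth factor, at 1.53 by fold. At its 5′ end Met had folds of 1.36, 2.00 and 1.24 and pileups of 7.15, 7.01 and 6.41. Mcm2, a subunit of the replicative helicase, had folds of 1.66, 0.746 and 1.77 but pileups of 8.93, 5.71 and 4.28. For Mcm2, HG+miR-93 was thus the highest list by fold and the lowest by pileup. Its partner Mcm5 on chromosome 8 had folds of 3.84, 2.71 and 2.58. Myc, a growth-promoting transcription factor, had folds of 1.85, 1.23 and 2.72 and pileups of 7.15, 8.83 and 9.33, and its ratio HG+NT over NG relative to the other autosomes went from 0.741 by fold to 1.417 by pileup. Gapdh, a glycolytic enzyme on chromosome 6, had folds of 2.01, 1.80 and 1.59, at 0.928 and 0.873 times its chromosome's ratio. Of the epithelial keratins and adhesion genes of chromosome 15, Krt18 had folds of 1.37, 1.75 and 1.66 and the integrin Itga5 had 2.69, 2.497 and 1.76. Krt8 had folds of 2.13, 1.55 and 1.31 but pileups of 5.36, 6.75 and 5.83.

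The podocyte label was checked on promoters of 15 marker genes. Of 8 podocyte markers, 4, 6 and 6 ranked above the 50th percentile of all coding promoters, as did 2, 2 and 1 of 3 endothelial, 0, 2 and 2 of 2 mesangial and 0, 1 and 1 of 2 leukocyte markers. Synpo, an actin-binding protein of foot processes, had percentiles of 90.8, 96.1 and 70.8 among those promoters. Nphs1, a defining gene of the slit diaphragm, had 9.55, 54.3 and 63.4. The endothelial marker Pecam1 reached 61.9, 67.7 and 87.4, and the leukocyte marker Ptprc 22.2, 1.63 and 5.16. The podocyte markers as a group were thus not set apart from those of other kidney cells at their promoters.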

How the data were processed

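DNase-Seq of mouse podocytes was analysed from 1 narrowPeak list per condition. According to the labels and the study's methods, the authors called bases with CASAVA 1.8.2, trimmed reads with TrimGalore!, aligned them to mm10 with Bowtie and had MACS2 call peaks over the input, and joined the 2 samples of a condition. Parameters of the peak caller are not given in the sources used here. The deposited fold ratio (column 7) and −log10 p (column 8) are those of MACS2 at the summit, and positions are in columns 2, 3 and 10. The score and the q-value were not used.

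From the deposited fold and −log10 p, the whole number of fragments and the local input mean at each summit were recovered (for 100% of peaks, with 1 solution for 99.8% in HG+miR-93 and more in the other lists), which gave the pileup and the depth over the input (2.24 for NG, 3.85 for HG+NT, 5.15 for HG+miR-93). Summits were sorted into 5 Mb bins, and a bin needed 500 peaks or more in each list. Levels were divided by the median bin of the 15 other autosomes, and a trend on GC content (polynomial of degree 2, fitted to those 15 within each list) was removed where stated. Gene positions were taken from GENCODE M21 and sequence from GRCm38.p6, which is mm10. The text names the genes of a list by group, the highest and lowest bin of each chromosome, and on each chromosome the shared peak (summits within 150 bp in the 3 lists) with the highest least −log10 p. Some genes of the lists are counted but not reported here by name. Chromosomes and lists were chosen with earlier results of these data known. No test was made, as the lists hold no replicates. Fragments and steps were tested on simulated data. The alternatives were the pileup, the median, other bin sizes, references, peak subsets and thresholds, and promoters of 1000 nt. Removal of the GC trend from levels, counts, widths and pileups, the GC ranges of bins, and promoters at the 5′ end of the gene alone were added after seeing the data. Tools were scipy 1.17.1, numpy 2.4.6, matplotlib 3.10.9 and pandas 2.3.3 under Python 3.11.15.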

Additional observations from a re-analysis of the deposited data

Results flagged for a closer look

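The X chromosome belongs to no comparison above. Its median bin had a fold ratio HG+NT over NG of 1.205 with the GC trend removed, with bins from 1.18 to 1.24, and of 1.13 as deposited. Its HG+miR-93 over NG ratio was 1.21, and its NG level was 0.905. It was given a closer look because its bins lie above those of the 15 other autosomes.

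The input is outside the comparison between conditions. Its local mean at the NG summits, relative to the other autosomes, was 1.13 on chromosome 8, 1.102 on chromosome 15 and 1.13 on chromosome 19, the 3 autosomes whose fold level in NG is given above as below 1. On chromosome 6 it was 0.994. Its part in the fold levels is given by the pileup beside them.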

How the results depend on the processing

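No paired analysis was possible because each condition has 1 list for its joined samples, and for the same reason no replicate could be left out. Over 384 alternatives of 80 values, all 48 of HG+NT over NG and all 48 of HG+miR-93 over NG for the fold ratio of the 4 chromosomes stayed above 1. A value counted as moved when it changed by more than the SD over the bins of its chromosome. The pileup in place of the fold gave ratios of 1.31 (HG+NT over NG) and 1.29 (HG+miR-93 over NG) on chromosome 19, and turned the NG levels of chromosomes 8, 15 and 19 to 1.051, 1.022 and 1.0501, since it is not divided by the input. Peaks with a −log10 p of at least 1 gave smaller ratios of 1.06 and 1.06 on chromosome 8 and 1.06 and 1.06 on chromosome 19, and reversed the ratio of peak numbers to 1.404, 1.82, 1.80 and 1.86 on chromosomes 6, 8, 15 and 19. With a threshold near the top of the range of the other autosomes (1.14 for HG+NT over NG), 7 bins of chromosome 6 were raised in HG+NT over NG, and 4 of chromosome 6 and 9 of chromosome 15 in HG+miR-93 over NG. Removal of the GC trend gave 30 and 27 raised bins on chromosome 6 and steps of -0.013, 0.057 and 0.055 on chromosomes 6, 8 and 15, the first with its sign turned. Of 108 alternatives for the promoter ratio HG+NT over NG of the 36 genes, 13 changed it by more than the SD (log2) over coding genes of the other autosomes. Relative to the other autosomes the ratio crossed 1 for 8 genes by pileup, to 1.48 for Junb, 1.14 for Col4a2, 1.417 for Myc, 1.07 for Ccnd2, 1.06 for Gadd45a, 0.980 for Itga5, 1.444 for Krt8 and 1.01 for Gapdh. It also crossed 1 for E2f4 (1.39) with promoters of 1000 nt, and for Myc and Gapdh at the 5′ end of the gene. The fold is divided by the local input at the summit of each list and the pileup is not. Why these genes crossed was not tested. A trend on GC could not be fitted to the number of strong peaks without falling below 0.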
